A study of Mus musculus with 6 samples.

Results

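The complement components and regulators described here are the genes C1qa, C1qb, C1qc, C2, C4b, Cfb, Cfp and Serping1, chosen by name as members of the complement system. Of these 8 symbols, 7 had probe sets of their own on the array, 10 probe sets in all, out of 8251 named genes. C4b had none of its own: the 2 probe sets annotated to it also name the near-identical gene C4a, so their values are given separately and belong to neither gene alone. By the labels, RNA came from uteri of female C57BL/6 mice aged 10 to 11 weeks, all ovariectomised 7 days before they were killed. Uteri of a group were pooled before extraction. The labels name 10 mice and do not say if this is per group. The groups were vehicle under the skin, taken 24 h after injection, and a single dose of 0.05 µg estradiol per mouse, taken after 1, 3, 6, 12 or 24 h. Each group was read on 1 Affymetrix U74Av2 array, so no value has a replicate, no difference was tested, and each comparison describes a pair of arrays. The vehicle array matches only the 24 h array in time since injection; at 1, 6 and 12 h the injection itself and estradiol cannot be told apart. The number of arrays limits the precision.

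Complement is a cascade of plasma and tissue proteins that tags targets for uptake by phagocytes and can lyse cells. The classical pathway starts with C1q, whose A, B and C chains are encoded by C1qa, C1qb and C1qc and are made largely by macrophages, and runs through C1r and C1s to the cleavage of C4 and C2, which together form a C3 convertase. The alternative pathway uses factor B (Cfb) and is stabilised by properdin (Cfp), while the serpin C1 inhibitor (Serping1) blocks C1r and C1s and also restrains the contact system that generates bradykinin. In the uterus, complement genes are expressed by resident leukocytes, stroma and epithelium, and estrogen is known to act on complement expression there.

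The genes of the 3 C1q chains lie side by side on chromosome 4 in the order C1qb, C1qc, C1qa, and Cfb and C2 are neighbours on chromosome 17, where C4b lies nearby, next to Tnxb and Cyp21a1. Serping1 lies on chromosome 2 and Cfp on chromosome X. The sequences of the C1qb and C1qc promoters are shown because these neighbouring genes had similar log2 ratios to vehicle at 12 h. These were -0.59 and -0.62. The likeness held at 12 h more than at 6 h (-0.31 and -0.67) or 24 h (-0.83 and -0.46). It also rests on the brighter probe set of C1qb, as the dimmer one stood at 0.53 at 12 h. Of the 8 symbols, 3 (C1qb, C1qc and Cfp) matched a promoter. Both sequences come from RefSeq (GRCm38.p6) and run from 250 bases before to 50 bases after the start of transcription, on the minus strand. C1qb spans chr4:136886151-136886450 and C1qc spans chr4:136892865-136893164. Capitals mark ACTTCCT, the reverse complement of AGGAAGT, which holds the GGAA core read by ETS factors such as PU.1, a factor of the macrophage lineage.
C1qb: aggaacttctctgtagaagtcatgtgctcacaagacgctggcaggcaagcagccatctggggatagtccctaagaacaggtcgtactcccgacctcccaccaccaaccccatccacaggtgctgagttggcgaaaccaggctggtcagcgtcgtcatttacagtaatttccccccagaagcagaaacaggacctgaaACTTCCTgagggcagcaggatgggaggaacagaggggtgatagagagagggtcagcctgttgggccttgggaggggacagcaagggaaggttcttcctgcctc
C1qc: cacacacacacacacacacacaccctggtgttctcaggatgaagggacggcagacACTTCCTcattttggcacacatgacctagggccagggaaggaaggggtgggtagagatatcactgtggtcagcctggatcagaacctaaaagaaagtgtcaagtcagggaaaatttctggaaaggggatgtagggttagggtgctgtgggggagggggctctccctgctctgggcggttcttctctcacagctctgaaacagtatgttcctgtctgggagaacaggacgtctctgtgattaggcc
The match began 53 bases before the start in C1qb and 195 bases before it in C1qc, and 9.35% of the 32851 promoters of this length hold the motif on either strand. It was searched after the sequences had been read, and the promoter of Cfp held no match to it. The promoters of C1qb, C1qc and Cfp held no match, on either strand, to the estrogen response element (AGGTCA, 3 bases of any kind, TGACC; in 0.0548% of all promoters), to the core of the interferon-stimulated response element (GAAA, 2 bases of any kind, GAAA; 3.44%), to TTCNNNGAA (STAT, 8.3%) or to GGGANTTCC (NF-kB, 1.68%).

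Signals are MAS5 intensities on a linear scale, and where a gene has several probe sets the brightest on average stands for it. Values below a floor of 142.8 signal units were set to the floor before ratios were taken, and a ratio against a floored value is a bound. Between 58.8% and 61.7% of the probe sets of an array reached it. The vehicle, 1, 6, 12 and 24 h arrays had rank correlations (Spearman's rho over probe sets) between 0.929 and 0.968 in their 10 pairs, while the array labelled 3 h reached 0.843 to 0.857 against them. On that array the summed signal of 11 measured granulocyte markers was 98444, against 1474 to 2465 on the other 5, though only 4 of the 11 reached the floor on those 5, so the list is measured largely through this array. The summed signal of 11 smooth muscle markers was 17812, against 48522 to 79966. The values of the array labelled 3 h are given apart. On the other 5 arrays, 15 epithelial markers each reached the floor at least once, Wnt7a only at 6 h. They summed to 14921 to 23386, and the stromal and smooth muscle markers to more. On the array labelled 3 h the epithelial markers summed to 11691, of which Lcn2 made 9662, and the stromal ones to 101270. There 11 epithelial and 9 stromal markers were at least 2-fold below vehicle, and 1 and 4 above, beside 12.3% and 10.8% of all measured genes.

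Serping1, the inhibitor of the classical pathway's first proteases, had the widest range of the 7 genes. Its signal was 5135 in vehicle and 4872, 2218, 1043 and 2034 after 1, 6, 12 and 24 h. Vehicle and 1 h were close together, and the 12 h array was the lowest. Serping1 stood below vehicle by 2.31-fold, 4.92-fold and 2.52-fold at 6, 12 and 24 h. At 12 h only 31 of 6562 measured genes had a lower log2 ratio than its -2.30, and at 24 h 87 had a lower one than its -1.34. The 12 h signal was 2.13-fold below that at 6 h, a step that 1.33% of measured genes took downwards by at least 2-fold. From 12 h to 24 h the signal was 1.95-fold higher.

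**Figure D1:**
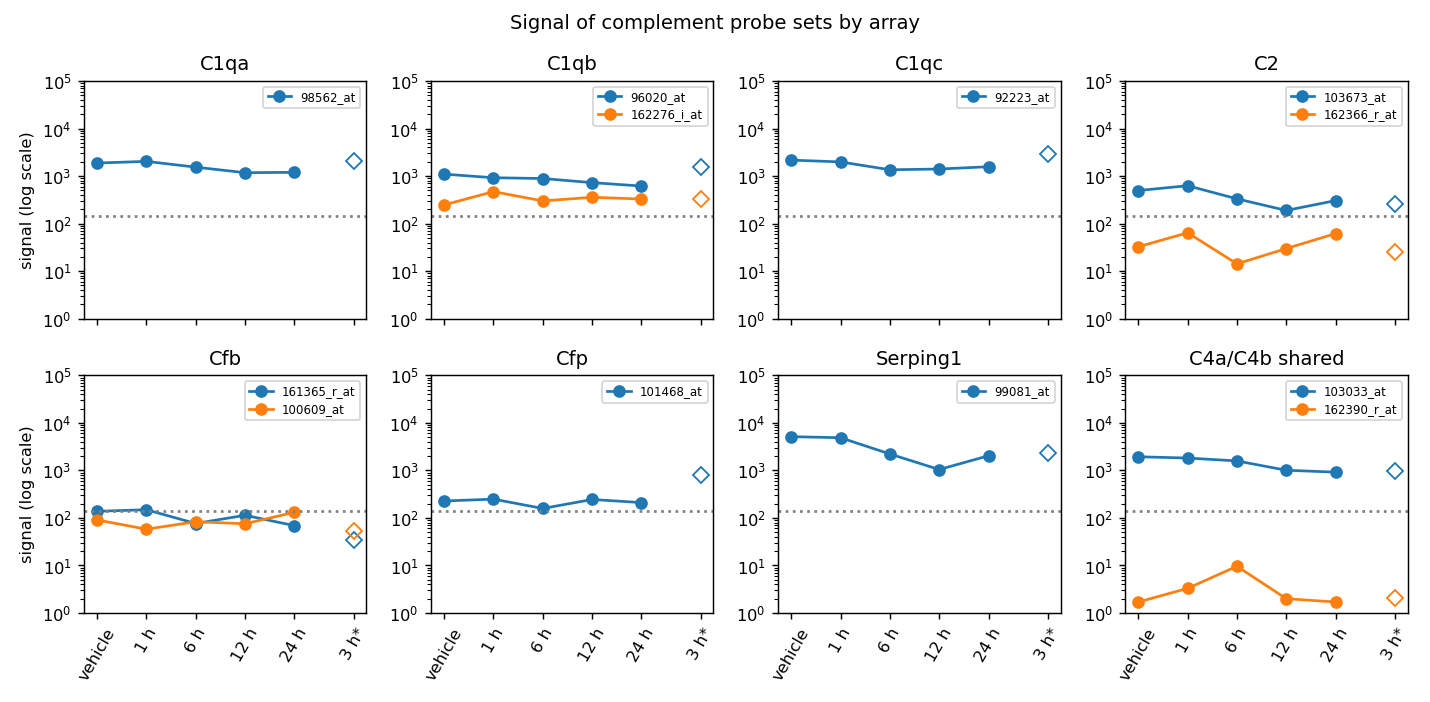
Signal of each complement probe set (log scale, signal units) on the vehicle, 1, 6, 12 and 24 h arrays (joined points, 1 array each) and on the array labelled 3 h (open diamond, starred); the dotted line is the floor of 142.8. Serping1 goes from 5135 in vehicle to 1043 at 12 h, while both Cfb probe sets stay near or below the floor.

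C1qa, which encodes the A chain of C1q, had a signal of 1881 in vehicle and 2039, 1542, 1179 and 1199 after 1, 6, 12 and 24 h. The 12 and 24 h arrays were the lowest and close together. The C chain gene C1qc was at 2167, 1986, 1358, 1407 and 1574 on the same arrays, lowest at 6 h. The B chain gene C1qb, by its brighter probe set, was at 1099, 923, 889, 728 and 617, lowest at 24 h. At 12 h the log2 ratios to vehicle of the 3 chains were -0.67 for C1qa, -0.59 for C1qb and -0.62 for C1qc, a spread of 0.08. The spread was wider on the other arrays, with 0.37, 0.39 and 0.37 at 1, 6 and 24 h, and the ratios at 24 h were -0.65, -0.83 and -0.46. No chain reached 2-fold at any of these times, and at 12 h between 14.4% and 16.8% of measured genes had lower ratios.

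The dimmer probe set of C1qb did not follow the brighter one. Its signal was 248 in vehicle and 470, 300.3, 358 and 329 after 1, 6, 12 and 24 h, all 4 estradiol arrays above vehicle. Its log2 ratio was 0.53 at 12 h and 0.41 at 24 h, against -0.59 and -0.83 for the brighter one. With the median of both probe sets, C1qb stood at -0.03 at 12 h and -0.21 at 24 h, so the lower C1qb signal rests on its brighter probe set.

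The summed signal of macrophage markers was also below vehicle at 6, 12 and 24 h. Of 22 symbols, 20 were on the array and 15 were measured, that is, reached the floor on some array. Their summed signal was 11197 in vehicle and 11715, 7365, 7839 and 9599 after 1, 6, 12 and 24 h. Their median log2 ratio was -0.41 at 6 h, -0.34 at 12 h and 0.00 at 24 h. Only 14 of the 15 reached the floor on vehicle, 1, 6, 12 or 24 h. The other, Fcer1g, was entered as 0, and the 0.00 at 24 h is that entry. At 6, 12 and 24 h, 1, 2 and 2 of the 15 were called 2-fold lower. Of all measured genes 8.35%, 6.93% and 3.54% were. Cd83 was at least 3.24-fold lower at each time, a bound set by the floor. Mpeg1 joined it at 12 h (-1.05) and Tyrobp at 24 h. Only Lgals3 was called higher, at 24 h. Adgre1, Mrc1 and Fcgr1 lay less than 2-fold above the floor in vehicle, and Itgam and Fcer1g below it. None of these could be called lower. At 12 h the growth factor receptor gene Csf1r stood at -0.98 and the lysosomal protease gene Ctss at -0.93. The lysozyme gene Lyz2 was at -0.66 and the signalling adaptor gene Tyrobp at -0.60. Cd68, a lysosomal membrane protein, was at 0.24 and the galectin gene Lgals3 at 0.67. The brightest members were Lyz2, Ctss and Cd14, and the macrophage genes Marco and Siglec1 were below the floor throughout. The 13 pan-leukocyte markers had medians of -0.01, -0.12 and -0.15 at 6, 12 and 24 h. The medians at 6 and 24 h are bounds set by the floor, of Ptprc and Cd48. No measured ratio among the 13 passed 2-fold, but Cd37 was at least 1.83-fold lower at 1, 6 and 12 h, where it lay below the floor. In vehicle, Vav1 and Itgb2 lay below the floor, and Ptprc, Cd48, Cd37 and Cd53 less than 2-fold above it. None of these could be called 2-fold lower. The 9 MHC class II genes summed to 18163 in vehicle and 16980, 12227, 8082 and 7868 after 1, 6, 12 and 24 h. In a bulk sample, fewer cells of a type and less RNA per cell cannot be told apart, and the part of these cells in the C1q values was not tested.

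C2, the protease that joins C4 in the classical convertase, had a signal of 497 in vehicle and 627, 332, 189 and 305 after 1, 6, 12 and 24 h. The 12 h array was again the lowest and stood not far above the floor. C2 was 2.62-fold lower than vehicle at 12 h, and its log2 ratio was -0.58 at 6 h and -0.70 at 24 h. At 12 h 171 measured genes, or 2.61%, had a lower log2 ratio than its -1.39. With a floor at the 60th percentile the ratio was -0.49, and with the median of both probe sets -0.70, since the second C2 probe set lay below the floor on every array, at 14.2 to 64.1.

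The brighter probe set shared by C4a and C4b, genes of the C4 family, was at 1939 in vehicle and 1820, 1584, 1008 and 920 after 1, 6, 12 and 24 h. Vehicle and 1 h were the highest and 12 and 24 h the lowest, 1.92-fold and 2.11-fold below vehicle. The second shared probe set read 1.70 to 9.61 on the 6 arrays, below the floor. Tnxb, which encodes the matrix protein tenascin X and borders C4b, went from 1824 in vehicle to 217 at 12 h, and Cyp21a1 on the other side from 1211 to 1042.

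In the alternative pathway, only properdin was measured on all arrays. Properdin (Cfp) had a signal of 227 in vehicle and 249, 158, 244 and 210.4 after 1, 6, 12 and 24 h. The 6 h array was the lowest, 1.44-fold below vehicle, and all 5 values lay near the floor. Factor B (Cfb) could not be followed. Its brighter probe set was at or above the floor on 1 array only, with 149 at 1 h against 138 in vehicle, and read 76.4, 114 and 68.9 at 6, 12 and 24 h, while its other probe set read 53.4 to 131 on the 6 arrays.

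Counted over the 7 genes, all of which reached the floor on at least 1 array, Serping1 alone was at least 2-fold lower at 6 h, Serping1 and C2 were at 12 h, and Serping1 alone was at 24 h. Among all 6562 measured genes, 8.35% were at least 2-fold lower at 6 h, 6.93% at 12 h and 3.54% at 24 h. Cfb, below the floor in vehicle and from 6 h on, could not be called at those times. Cfp, at 227 in vehicle, stood less than 2-fold above the floor, so it could not be called 2-fold lower at any time. None of the 7 was called 2-fold lower at 1 h, where 0.351% of all genes were, and none was 2-fold higher at any of the 4 times, where 0.853%, 6.34%, 6.16% and 3.41% of all genes were. The median log2 ratio of the 7 was 0.06, -0.52, -0.62 and -0.65 at 1, 6, 12 and 24 h, with Cfb entered as 0 from 6 h on, and that of all measured genes was 0.00 at each. With a limit of 1.5-fold, C1qc joined Serping1 at 6 h (18.7% of all genes were as low), C1qa, C1qb, C1qc and C2 joined it at 12 h (17.1%), and C1qa, C1qb and C2 at 24 h (12.6%). With so few members these counts describe single genes and not the pathway.

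**Figure D2:**
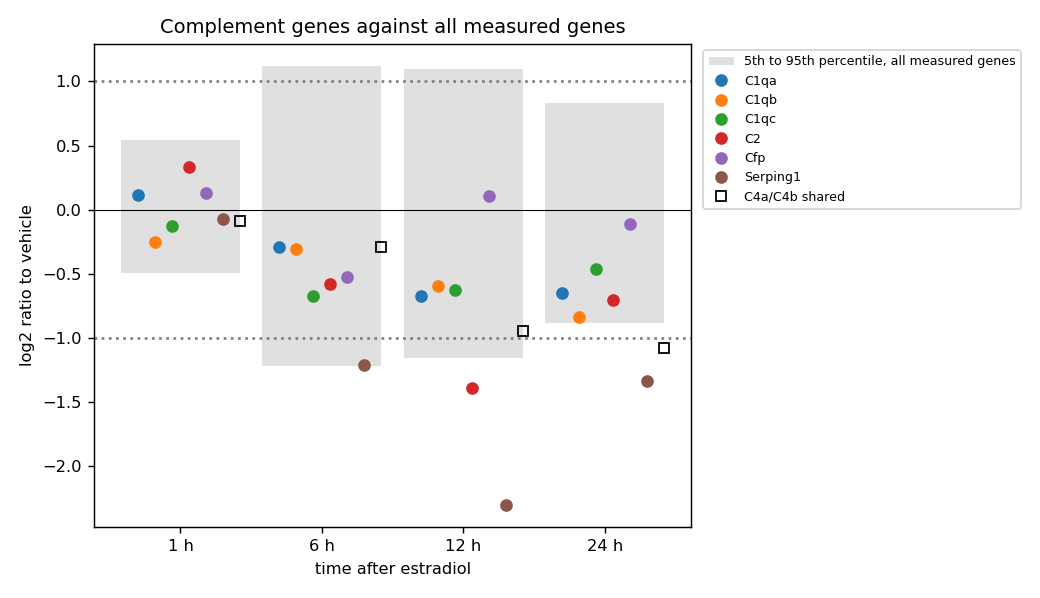
Log2 ratio to vehicle at 1, 6, 12 and 24 h of 6 complement genes by their brighter probe set (circles) and of the brighter probe set shared by C4a and C4b (square), with 1 array per time; grey boxes span the 5th to 95th percentile of all 6562 measured genes and dotted lines mark 2-fold. Serping1 lies below the box at 12 and 24 h, C2 at 12 h and the shared probe set at 24 h, and Cfb is left out because it lay below the floor on nearly all arrays.

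Of 41 other complement genes listed by name, 25 had a probe set of their own, and 11 of these reached the floor on vehicle, 1, 6, 12 or 24 h. C3, the central component, was not analysed here. None of the 11 was called 2-fold higher at any of these times and none was 2-fold lower at 1 h; 2 were lower at 6 h, 2 at 12 h and 1 at 24 h, where 8.35%, 6.93% and 3.54% of all measured genes were. Cd59a, a membrane inhibitor of the lytic complex, had a signal of 1227 in vehicle and 988, 373, 286 and 580.1 after 1, 6, 12 and 24 h. It was 3.29-fold, 4.28-fold and 2.12-fold lower at 6, 12 and 24 h, with its lowest value at 12 h like Serping1. Its paralogue Cd59b, named after its values were seen, was at least 2.45-fold lower at 6 h, from 350 to below the floor, and at 349 at 24 h. C1ra, which encodes the protease C1r that Serping1 inhibits, was at 1640 in vehicle and 1591, 861, 736 and 1154 after 1, 6, 12 and 24 h, and 2.23-fold lower at 12 h. Of the remaining 8, 6 were within 2-fold of vehicle, among them the C5a receptor gene C5ar1, the decay accelerator gene Cd55 and the chaperone-like regulator gene Clu. The others, Cfi and C8g, reached the floor only at 24 h, so their ratios there are lower bounds, of at least 1.15-fold and 1.23-fold higher. Cd55 and C3ar1 lay less than 2-fold above the floor in vehicle, and Cfi and C8g below it. None of these could be called 2-fold lower. The lectin pathway genes Masp1, Masp2, Mbl1 and Mbl2 were below the floor on all 6 arrays.

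**Figure D3:**
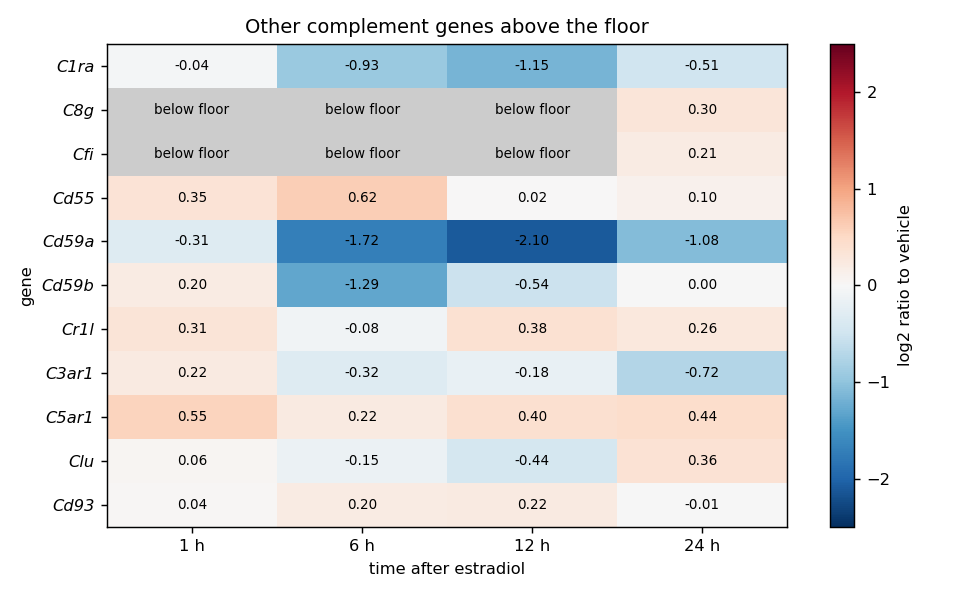
Log2 ratio to vehicle at 1, 6, 12 and 24 h (columns) of the 11 other complement genes that reached the floor on these arrays or in vehicle (rows), with the value in each cell and grey where both arrays were below the floor. Cd59a is lowest at -2.10 at 12 h, and C1ra at -1.15 is the other gene past 2-fold at that time.

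Adipocyte markers and interferon-induced genes also had lower signal on the arrays where Serping1 and C2 were low. The 10 measured adipocyte markers summed to 18415 in vehicle and 20311, 10542, 8183 and 7779 after 1, 6, 12 and 24 h, with median log2 ratios of -0.78, -1.12 and -1.10 at 6, 12 and 24 h. At these times 2, 6 and 5 of the 10 were 2-fold lower and none higher. The shares of all measured genes that were lower were 8.35%, 6.93% and 3.54%. Car3, Adipoq and Cebpa were the brightest, and Adipoq, which encodes adiponectin, went from 4283 to 1460 at 12 h. The 17 measured interferon-induced genes summed to 9551 in vehicle and 9807, 5027, 4198 and 7705 after 1, 6, 12 and 24 h, lowest at 12 h as were Serping1 and C2. Of them, 7 were 2-fold lower at 6 h, 9 at 12 h and none at 24 h, beside 8.35%, 6.93% and 3.54% of all measured genes. At 24 h the ratio of Ifit2 is a bound, at least 1.76-fold lower. The 18 stromal fibroblast markers summed to 80383 in vehicle and 71529, 47787, 65095 and 103740 after 1, 6, 12 and 24 h. Their median log2 ratios were -0.73, -0.31 and -0.17 at 6, 12 and 24 h, with 6, 4 and 1 members 2-fold lower and 1, 1 and 4 higher. Of all measured genes 8.35%, 6.93% and 3.54% were lower and 6.34%, 6.16% and 3.41% higher. At 12 h the stromal genes Dcn, Pdgfra, Fbln1 and Wt1 stood at -2.01, -1.98, -1.36 and -1.22. Others of this list went the other way, with Sparc, Col1a1, Col3a1 and Col1a2 at 1.08, 0.93, 0.54 and 0.53. The brightest stromal markers were Col1a1, Dcn and Col1a2. The 11 endothelial markers summed to 5796 to 7989 over these 5 arrays, with Eng the brightest. Their median log2 ratios were -0.30, -0.29 and -0.39 at 6, 12 and 24 h. Of them, 3, 3 and 2 were 2-fold lower and none higher, beside the shares of all genes given above. At 12 h Vwf was at least 4.37-fold and Cldn5 4.28-fold lower, while Eng stood at 0.08. Of 10 liver genes on the array, 7 were below the floor on all 6 arrays, among them Alb, Apoa1 and Fgb. Of the other 3, Cyp2e1 went from 2591 in vehicle to 1062 at 12 h and 1185 at 24 h, Hp was at 613 in vehicle and 716 at 12 h, and Ttr reached the floor only on the array labelled 3 h, at 747. The part of these cells and responses in the values of Serping1 and C2 was not tested.

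**Figure D4:**
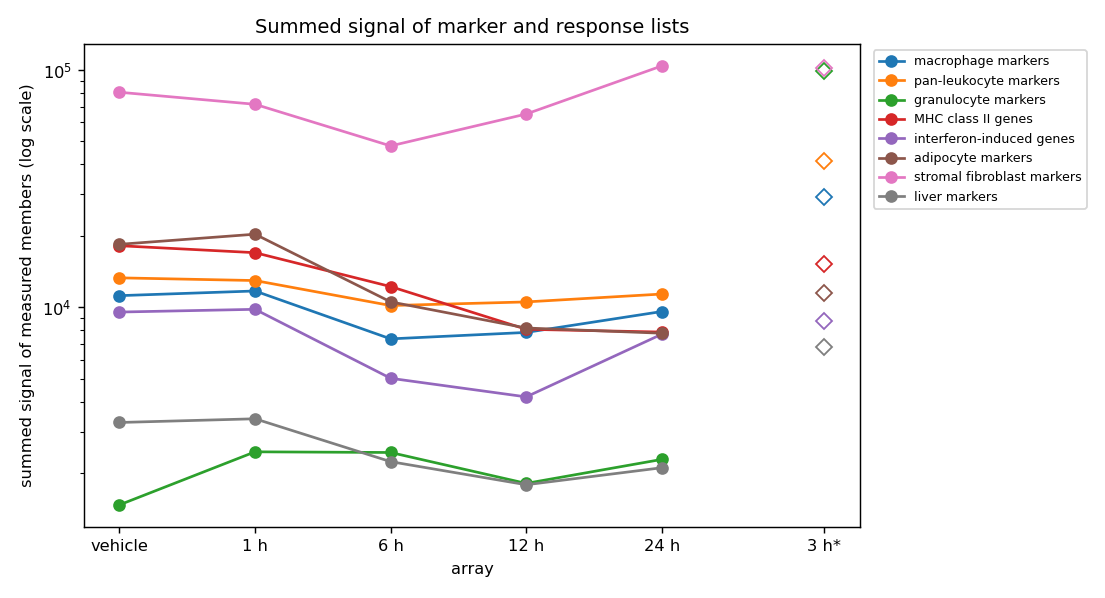
Summed signal (log scale, signal units) of the measured members of 8 marker and response lists on the vehicle, 1, 6, 12 and 24 h arrays (joined points, 1 array each) and on the array labelled 3 h (open diamonds, starred). Adipocyte markers go from 18415 in vehicle to 7779 at 24 h, and granulocyte markers reach 98444 on the array labelled 3 h alone.

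The genes whose course was nearest to a member were found among 5064 genes above the floor on the vehicle, 1, 6, 12 and 24 h arrays, by the root mean square difference of the log2 ratios at the 4 times. Nearest to Serping1 were C1qtnf3, a secreted protein of the C1q and TNF related family, at 0.15, the fatty acid transporter gene Slc27a1 at 0.17 and the matrix protein gene Sparcl1 at 0.19. At 12 h these stood at -2.20, -2.21 and -2.30, beside -2.30 for Serping1. Nearest to C2 were the glycerol phosphate dehydrogenase gene Gpd1 at 0.17, the gluconeogenic enzyme gene Pck1 at 0.17 and the triglyceride lipase gene Pnpla2 at 0.18. At 12 h these stood at -1.15, -1.60 and -1.25, beside -1.39 for C2. The likeness rests on 4 ratios that share the vehicle array. None of the other genes with probe sets of their own had a range of 2-fold over these arrays. The brighter probe set shared by C4a and C4b did, at 2.11-fold, but its nearest genes were not sought.

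**Figure D5:**
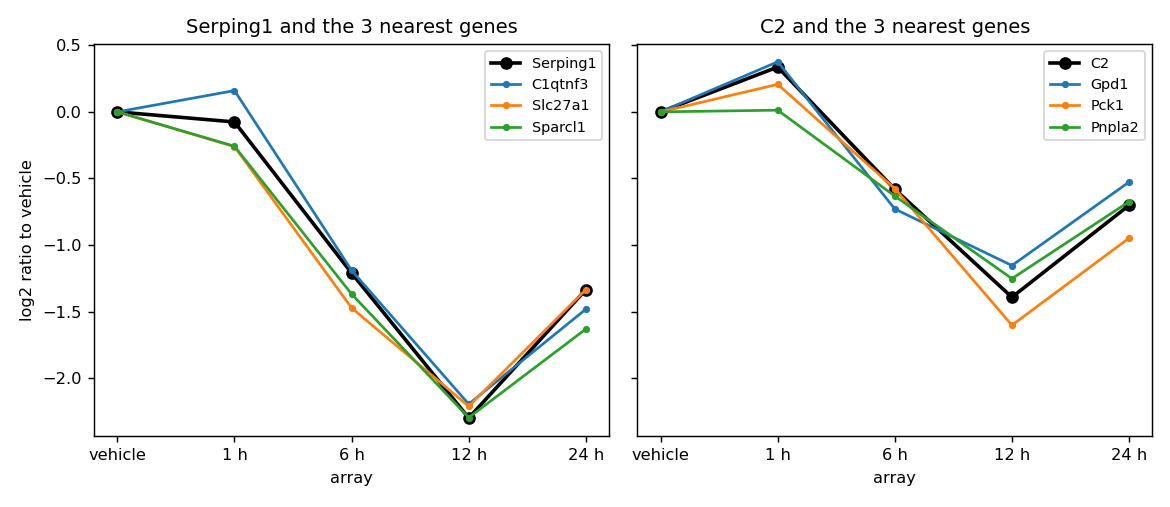
Log2 ratio to vehicle on the vehicle, 1, 6, 12 and 24 h arrays of Serping1 (left) and C2 (right), in black, with the 3 genes nearest to each in colour, 1 array per time. All 8 curves are lowest at 12 h and higher again at 24 h.

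On the array labelled 3 h, Cfp was the highest of its values at 818, 3.60-fold above vehicle, where 10.8% of measured genes were at least 2-fold higher. The 3 C1q chains were at 2096 for C1qa, 1543 for C1qb and 2858 for C1qc, each the highest of its 6 arrays by the brighter probe set. Serping1 was at 2377, 2.16-fold below vehicle, where 12.3% of genes were at least 2-fold lower, and C2 was at 262. Macrophage markers summed to 29184 on this array and pan-leukocyte markers to 41321, beside 7365 to 11715 and 10173 to 13305 on the other 5. The part of these cells, and of the granulocyte signal above, in the C1q and Cfp values was not tested.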

How the data were processed

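Uterine RNA of 6 groups, 1 array of pooled tissue each, was measured on Affymetrix U74Av2 arrays from 20 µg of total RNA, per the labels' protocols. The values the authors deposited are MAS5 signal intensity, not log-transformed, per the submitters' processing notes; the version, background settings and masks are not given in the sources used here. From the values, the authors' arrays had a common trimmed mean of 500.2 to 500.3. After 66 control probe sets were removed, 12422 remained. The platform annotation gave 10833 of them 1 symbol, 396 several and 1193 none, of which those with 1 were named; 10817 symbols were matched by gene identifier to RefSeq (GRCm38.p6). Arrays were rescaled to the same mean after trimming 2% at each end, values under the 40th percentile were raised to it, and log2 was taken (Python 3.11.15, pandas 2.3.3, numpy 2.4.6). A gene counts as measured if it reached the floor on at least 1 of 6 arrays, which 6562 did. With 1 array per group there is no test, and a 2-fold limit served for counts. The counting was tested on data simulated from the vehicle array, with little noise and with changes placed only in bright probe sets. That checks the computation, and not calls near the floor or the noise of these arrays. All members and probe sets are named. Of the other complement genes, those at least 2-fold from vehicle whose brighter array reached the 60th percentile (352.65) are named. For members with probe sets of their own and a 2-fold range, the 3 nearest genes are given. Of marker lists, up to 3 of the brightest are named. Further macrophage, leukocyte, epithelial, endothelial, liver, stromal, interferon-induced and neighbouring genes were chosen after their values were seen. The members and lists were chosen with earlier results of these data known. C3 was not analysed here.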

Additional observations from a re-analysis of the deposited data

Results flagged for a closer look

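Cfp had a signal of 818 on the array labelled 3 h, against 227 on the vehicle array. It is listed because that array is used in none of the comparisons over time and the value is more than 2-fold above vehicle; 10.8% of measured genes were as well.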

How the results depend on the processing

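The 4 times were recomputed with other floors, scalings, probe set rules and limits, and, chosen after seeing the data, with the array labelled 3 h left out of the scaling, floor and choice of probe set. Serping1 stayed at least 2-fold lower under all 9 alternatives to its log2 ratio at 6 h (-1.31 to -1.11), 12 h (-2.37 to -2.23) and 24 h (-1.38 to -1.30). Its only probe set lay above every floor used. The other floors, the median of probe sets and leaving out the array labelled 3 h therefore could not move its ratios. The count of 2-fold lower members at 12 h was 1 instead of 2 with the floor at the 60th percentile, and 1 with the median of all probe sets, each time without C2. At 24 h it was 2 instead of 1 with the floor at the 20th percentile, through Cfb. With a 1.5-fold limit the counts were 2 at 6 h, 5 at 12 h and 4 at 24 h, where 18.7%, 17.1% and 12.6% of measured genes were lower by as much. No count of higher members left 0 under any alternative run. No called ratio changed sign. No paired analysis was possible because each group has 1 array, and no replicate could be left out. Signals near the floor limit what can be said of Cfb, Cfp and, at 12 h, C2.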
